A study of Mus musculus with 4 samples.

Results

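Dividing basal cells of the mouse trachea were examined in 4 droplet single-cell RNA libraries, 1 from the dorsal and 1 from the ventral trachea of mice with a Ctnnb1 knockout (KO) in basal cells and of control mice. A cell counted as a dividing basal cell when it had at least 3 UMIs (unique molecular identifiers, each standing for 1 captured RNA molecule) of the basal keratin Krt5, none of the leukocyte gene Ptprc, and at least 1 UMI of at least 4 of 8 division genes (Mki67, Top2a, Cenpf, Ube2c, Nusap1, Tpx2, Cdc20 and Birc5). This rule found 192 cells among 7284 Krt5-positive, Ptprc-negative cells and 35901 cells in all. There were 37 in the dorsal KO library, 133 in dorsal control, 4 in ventral KO and 18 in ventral control. They were set beside 4538 non-dividing basal cells of the same libraries, which had at least 3 Krt5 UMIs, at least 1 UMI of the basal transcription factor Trp63 and none of the 8 genes.

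KO mice carried P63-CreER, the reporter allele Rosa26-rsr-GFP, Ki67-lsl-Dre and Ctnnb1-fl/fl. Control mice carried the same Cre, Dre and reporter alleles with Ctnnb1-fl/+, so that they too had 1 floxed Ctnnb1 allele. All mice received tamoxifen, and tracheae were taken 10 days later, separated into dorsal and ventral parts and dissociated with papain. In this design tamoxifen-activated Cre in Trp63-expressing cells enables Dre expression from the Ki67 locus, and Dre then switches on GFP, so that GFP marks basal cells that have cycled and their progeny. How old the mice were, how many gave each library and which Ctnnb1 exons are floxed is not stated in the labels. Each group is 1 library, so no difference between groups has a replicate check, and all intervals below are 95% intervals that cover counting error only.

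Basal cells are the stem cells of the pseudostratified airway epithelium. They sit on the basement membrane, renew themselves and give rise to secretory and multiciliated cells. In the dorsal mouse trachea some of them lie beneath hillocks, stratified patches marked by Krt13. A dividing cell copies its DNA in S phase with genes driven by E2F factors, and then enters mitosis with cyclin B, Cdk1 and the spindle genes, which are switched on late by B-Myb and FoxM1 bound at CHR elements in their promoters. Beta-catenin, the product of Ctnnb1, links cadherins to the cytoskeleton and carries the canonical Wnt signal.

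The libraries held between 6744 and 13962 barcodes and between 144851737 and 286711618 UMIs. Any pair of libraries shared between 17 and 43 barcode sequences among kept cells. Dividing cells were the deeper ones: their median was 51036 UMIs in dorsal KO, 28214 in dorsal control, 38504 in ventral KO and 34618 in ventral control, against 20288, 15821, 23507 and 22708 UMIs in non-dividing cells of the same libraries. Single dividing cells ranged from 1049 to 225376 UMIs, both extremes in dorsal KO. In ventral KO 1 of the 4 cells held 54.4% of all dividing-cell UMIs, and values from that library are given as values of 4 cells. In the other libraries the largest cell held 10.4% in dorsal KO, 2.56% in dorsal control and 10.4% in ventral control. A doublet caller marked none of the dividing cells in dorsal KO and ventral KO, 1 in dorsal control and 2 in ventral control. Cells that it did not mark included some with far more UMIs of the secretory cell gene Scgb1a1 than most dividing cells. Such cells held 4035 and 5064 Scgb1a1 UMIs in dorsal KO, and 2392 and 6305 in dorsal control. Whether they are mixtures of 2 cells was not tested.

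Dividing cells were a larger share of the dorsal than of the ventral basal cells in both genotypes, and a smaller share in the dorsal KO than in the dorsal control library. They made up 2.41% of Krt5-positive, Ptprc-negative cells in dorsal KO (37 of 1537, exact Clopper-Pearson interval 1.70% to 3.30%), 3.88% in dorsal control (133 of 3432, 3.25% to 4.58%), 0.458% in ventral KO (4 of 874, 0.125% to 1.17%) and 1.25% in ventral control (18 of 1441, 0.742% to 1.97%). The dorsal share was 5.26 times the ventral one in KO (interval 1.89 to 20.3) and 3.10 times in control (1.89 to 5.40). The KO share was 0.621 times the control share in the dorsal libraries (0.419 to 0.900) and 0.366 times in the ventral ones, where the interval of 0.0902 to 1.11 includes no difference.

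Since a deeper cell shows more of the 8 genes, every cell was also thinned to 8000 UMIs, which left out 38 Krt5-positive cells in dorsal KO, 195 in dorsal control, 16 in ventral KO and 22 in ventral control. The thinned shares were 1.93%, 3.71%, 0.466% and 0.775% in that order of libraries. Thinned, the dorsal to ventral ratio was 4.15 in KO (1.46 to 16.2) and 4.78 in control (2.58 to 9.84), and the KO to control ratio was 0.522 in the dorsal (0.335 to 0.788) and 0.601 in the ventral libraries (0.140 to 2.03). Among cells gated as fibroblasts, given as a background, 0 of 1627 in dorsal KO, 3 of 2165 in dorsal control, 0 of 1670 in ventral KO and 3 of 2251 in ventral control had at least 4 of the 8 genes. Their median depths were 12009, 9493, 11391.5 and 12440 UMIs. After thinning, the count of 0 in these fibroblasts allows a share of up to 0.222% in dorsal KO and 0.217% in ventral KO.

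**Figure D1:**
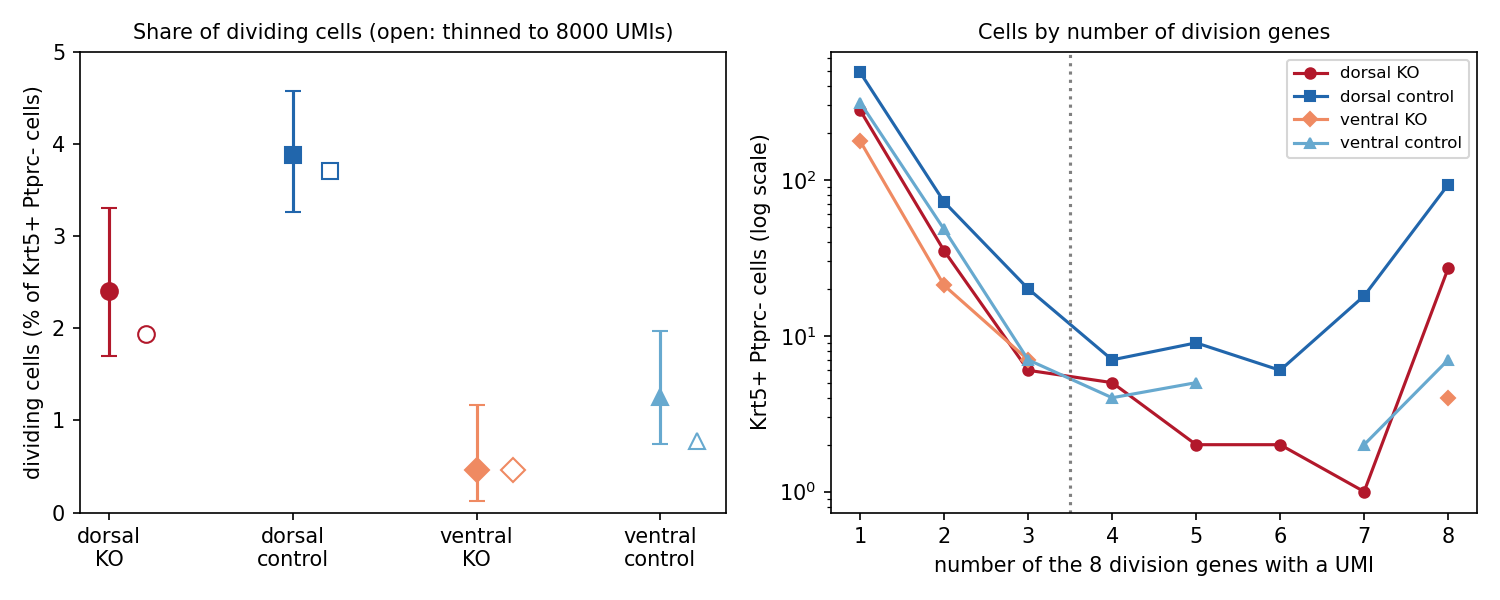
Left, share of dividing cells among Krt5-positive, Ptprc-negative cells in percent for each library, with exact 95% intervals as bars and the share after thinning to 8000 UMIs as open symbols. Right, number of these cells (log scale) by how many of the 8 division genes they showed, with the limit of the rule as a dotted line. Dorsal control is highest at 3.88% and ventral KO lowest at 0.458%, and the count of cells dips between 3 and 7 genes and is higher again at 8.

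The 8 genes separated the cells into a large negative and a small, mostly complete positive class. Over all libraries 5619 cells had none of them, 1257 had 1 and 176 had 2. A further 40 had 3, 16 had 4, 16 had 5, 8 had 6 and 21 had 7, whereas 131 had all 8. The 16 cells just inside the rule had a median of 10 UMIs of the 8 genes, and 5 of them held a UMI of Cdk1, the mitotic kinase. The 40 cells just outside had a median of 5 UMIs, and 5 of them held Cdk1. All 8 genes were found in 27 dividing cells of dorsal KO, 93 of dorsal control, 4 of ventral KO and 7 of ventral control.

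The members were thus selected on their Krt5, Ptprc and division gene UMIs. The cells also carried some basal cell genes that the rule did not use, of which Trp63, Krt15 and Aqp3 are given here. Trp63 was detected in 34 of 37 dividing cells in dorsal KO, 111 of 133 in dorsal control, 4 of 4 in ventral KO and 16 of 18 in ventral control. Krt15, a keratin of basal cells, had 2572 CPM (UMIs of the gene scaled to a fixed total of counts per library and cell class) in dorsal KO, 2644 in dorsal control, 1971 in ventral KO and 2474 in ventral control dividing cells, against 2584, 2770, 2204 and 2732 CPM in non-dividing cells of the same libraries. The water channel gene Aqp3 had 2169, 2120, 1524 and 1859 CPM in the dividing cells, against 2021, 2026, 2566 and 2359 CPM in the non-dividing cells. Both genes were thus within a factor of 1.5 in each dorsal library, whereas Aqp3 was lower by more than that in ventral KO dividing cells. Over a wider list of basal identity genes, described below, the median log2 ratio to non-dividing cells was 0.18 in dorsal KO and 0.06 in dorsal control. It was −0.54 in ventral KO and −0.14 in ventral control. The summed level of 7 fibroblast markers was 204, 149, 39.4 and 405 CPM in dividing cells, against 17082 to 19764 CPM in fibroblast-gated cells. Of 8 immune markers, Ptprc (by the rule), Cd3e and C1qa were at 0 in the dividing cells of every library. The 8 summed to 1125, 282, 118 and 47.7 CPM, against 847, 840, 1957 and 587 CPM in non-dividing cells. In dorsal KO the sum was thus higher in dividing cells, where Tyrobp and Coro1a were also at 0 and the sum came from Cd68, Lyz2 and Cd79a. Immune-gated cells had 8056 to 11814 CPM and secretory-gated cells 7486 to 12372 CPM.

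The GFP reporter was present in nearly all dividing cells and in most of the others. At least 1 eGFP UMI was found in 36 of 37 dividing cells of dorsal KO, 131 of 133 of dorsal control, 4 of 4 of ventral KO and 18 of 18 of ventral control. Among non-dividing cells the shares were 80.0%, 84.1%, 77.9% and 86.8%, but fibroblast-gated cells, at shallower depth, also showed a UMI in 52.7%, 52.2%, 40.9% and 48.6%. At 8000 UMIs per cell and at least 3 eGFP UMIs, the shares were 80.6%, 88.6%, 1 of 4 cells and 70.6% of dividing cells, 32.4%, 55.8%, 23.1% and 52.1% of non-dividing cells, and 10.1%, 12.0%, 4.78% and 6.74% of fibroblast-gated cells. The summed eGFP level was 823 CPM in dorsal KO, 937 in dorsal control, 491 in ventral KO and 658 in ventral control dividing cells, against 345, 645, 241 and 574 CPM in non-dividing cells and 101, 122, 74.8 and 93.9 CPM in fibroblast-gated cells. Of these 3 classes, dividing cells had the highest level in each library, with the smallest distance to non-dividing cells in ventral control. Hillock-gated cells had 323, 873, 612 and 354 CPM, from 44, 231, 2 and 26 cells. In ventral KO the level was above that of the dividing cells, but this sets 2 cells beside 4, and no order is drawn from it.

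Among the 8 genes that chose the cells, Ube2c and Cdc20 act in the anaphase-promoting complex pathway, which ends mitosis by degrading cyclins. Ube2c had 1051 CPM in dorsal KO, 931 in dorsal control, 469 in ventral KO and 504 in ventral control dividing cells. Cdc20 had 251, 311, 123 and 203 CPM in the same order. Top2a, which untangles DNA, had 607, 573, 578 and 292 CPM. The chromosome surface protein gene Mki67 had 254, 310, 285 and 207 CPM, and the survivin gene Birc5 of the chromosomal passenger complex had 329, 311, 377 and 224 CPM. The kinetochore gene Cenpf had 423, 459, 245 and 308 CPM, the spindle gene Tpx2 217, 253, 215 and 129 CPM, and Nusap1 156, 101, 109 and 55.6 CPM. In non-dividing cells they are 0 by the rule. Ventral control was lowest of the 4 libraries for Top2a, Mki67, Birc5, Tpx2 and Nusap1, and ventral KO for Ube2c, Cenpf and Cdc20.

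Late cell-cycle genes are known to be regulated through CHR elements and CCAAT boxes in their promoters, and 5 of the 8 genes showed both. RefSeq promoter windows (250 bases before to 50 after the start of the gene, GRCm38.p6, a build other than that of the counts) were matched for 7 of the 8 genes. The CHR element TTTGAA and the CCAAT box, each searched on both strands, were found together in 5 of these 7, namely Mki67, Top2a, Cenpf, Ube2c and Cdc20. Nusap1 and Birc5 held neither in this window. For comparison, 20.2% of 27025 genes held a CHR match, 41.1% a CCAAT match and 7.97% both. The 150 bases before the start are printed 5′ to 3′ on the strand of the gene for Ube2c and Top2a, as examples with a CHR match close to the start, with both elements in capitals (TTTGAA or its reverse complement TTCAAA, and CCAAT or its reverse complement ATTGG). Ube2c is at chr2:164769779-164769928 on the plus strand, with the CHR match 29 bases before the start. Top2a is at chr11:99024190-99024339 on the minus strand, with the match 23 bases before it.
Ube2c: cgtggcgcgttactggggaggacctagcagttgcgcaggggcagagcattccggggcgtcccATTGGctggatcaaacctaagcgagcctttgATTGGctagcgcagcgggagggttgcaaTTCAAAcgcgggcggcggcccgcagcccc
Top2a: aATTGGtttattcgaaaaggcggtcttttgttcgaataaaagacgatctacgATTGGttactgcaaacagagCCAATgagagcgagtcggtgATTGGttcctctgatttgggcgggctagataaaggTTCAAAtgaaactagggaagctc
Both sequences hold CCAAT boxes further from the start than the CHR match. In the wider lists, a CHR match was found in 21 of 25 matched spindle, kinetochore and cytokinesis genes (84.0%), 8 of 15 mitotic kinase, cyclin and checkpoint genes (53.3%), 7 of 14 condensin and chromatin genes, 3 of 26 DNA replication genes (11.5%) and 0 of 12 basal identity genes. These are counts of letters in a window and show no binding.

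Ratios of dividing to non-dividing cells are descriptions without a test, since the 8 genes defined both groups. A gene was measured with at least 20 CPM and 20 UMIs on 1 side in each dorsal library, and was called when it was at least 1.5-fold apart in both dorsal libraries and on the same side in both ventral ones. Of 6043 measured genes, 581 were higher in dividing cells (9.61%) and 269 were lower (4.45%). All 26 measured spindle, kinetochore and cytokinesis genes and all 17 measured condensin, chromatin and histone variant genes were called higher. So were 17 of 19 mitotic kinases, cyclins and checkpoint genes, 19 of 21 DNA replication genes and 4 of 5 division transcription factors. The median log2 ratio of the spindle list was 7.51 in dorsal KO, 6.87 in dorsal control, 6.53 in ventral KO and 5.79 in ventral control, beside 0.06, 0.07, 0.06 and 0.15 over all measured genes. The replication list had medians of 2.77, 2.23, 3.76 and 2.80, below those of the spindle list. The 8 rule genes are themselves mostly genes of mitosis, and non-dividing cells have none of them by the rule. The rule thus favours spindle over replication genes, and no conclusion about the cells is drawn from this order. Scaling by median-of-ratios size factors moves every log2 ratio of ventral control by 0.12 and those of the other libraries by less than 0.1.

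Mitotic regulators outside the 8 genes were almost absent from non-dividing cells. Cdk1 had 316 CPM in dorsal KO, 299 in dorsal control, 285 in ventral KO and 175 in ventral control dividing cells, against 0.352, 0.796, 1.03 and 0.447 CPM in non-dividing cells. Its partner Ccnb1, cyclin B1, had 155, 143, 52.6 and 77.9 CPM, against 1.92, 0.0249, 0.206 and 0.179 CPM. The polo-like kinase gene Plk1 had 70.1, 67.9, 39.4 and 33.4 CPM in dividing cells. The dorsal to ventral ratio of Cdk1 in dividing cells was 1.71 in control (interval 1.41 to 2.10). In KO it was 1.11, with an interval of 0.860 to 1.46 that includes no difference. A Cdk1 UMI was found in 108 of 133 dorsal control and 10 of 18 ventral control dividing cells. The part of cells with few of the 8 genes in the control ratio was not tested. Division genes varied in direction in KO, with a dorsal to ventral ratio of 0.594 for Pbk (0.411 to 0.883) and 2.85 for Cenpa (1.83 to 4.71). Hmmr, a spindle protein gene, had 185, 185, 140 and 121 CPM in dividing cells, against 0, 0.174, 0.0686 and 0 CPM in non-dividing cells. Its level was thus at least 1574-fold higher in dorsal KO and at least 901-fold higher in ventral control, against a floor of 3 UMIs per library. Pimreg, a mitotic regulator, had 53.9, 64.5, 52.6 and 38.1 CPM and no UMI in any non-dividing cells, which places it at least 459-fold, 864-fold, 255-fold and 284-fold higher.

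Chromosome and centromere genes were also among the furthest apart. Cenpa, the histone variant that marks centromeres, had 250 CPM in dorsal KO, 295 in dorsal control, 87.6 in ventral KO and 184 in ventral control dividing cells, against 0.744, 1.02, 1.03 and 1.21 CPM in non-dividing cells. The DNA-bending protein gene Hmgb2 had 1948, 1850, 2352 and 1538 CPM, against 326, 291, 330 and 373 CPM. The histone variant gene H2az1 had 2254, 2079, 2667 and 2004 CPM, against 567, 458, 668 and 656 CPM. Non-dividing cells thus also held RNA of Hmgb2 and H2az1 in each library. Aurkb, Pbk, Bub1, Depdc1a and Knl1 completed the 10 highest genes, with Pclaf and Cdk1. Outside all division lists the highest were Pimreg, Pclaf, Depdc1a, Cdca3, Esco2, Sapcd2, Mxd3 and Cdca8, followed by the histone genes H3c2 and H2ac10. The last 2 have near-identical copies among which the counting may have split reads, so their levels are uncertain.

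As a list, replication genes, which the rule favours less, differed by a smaller factor. Their median ratio was highest in the 4 cells of ventral KO. Rrm2, a ribonucleotide reductase subunit, had 77.9 CPM in dorsal KO, 68.9 in dorsal control, 114 in ventral KO and 79.4 in ventral control dividing cells, against 3.8, 4.00, 6.86 and 5.63 CPM in non-dividing cells. The thymidine kinase gene Tk1 had 162, 106, 337 and 170 CPM, against 1.45, 1.44, 2.68 and 2.86 CPM. Pclaf, a gene outside the list whose product binds the replication clamp, was among the genes furthest apart and had 188, 120, 364 and 137 CPM, against 0.0783, 0.149, 0 and 0.134 CPM. The clamp gene Pcna itself had 158, 155, 272 and 157 CPM, against 101, 104, 99.2 and 107 CPM, so its ratio of 1.56 in dorsal KO and 1.48 in dorsal control was among the smallest of the list. Pcna and Slbp, a binder of histone mRNA, were the measured replication genes not called.

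**Figure D2:**
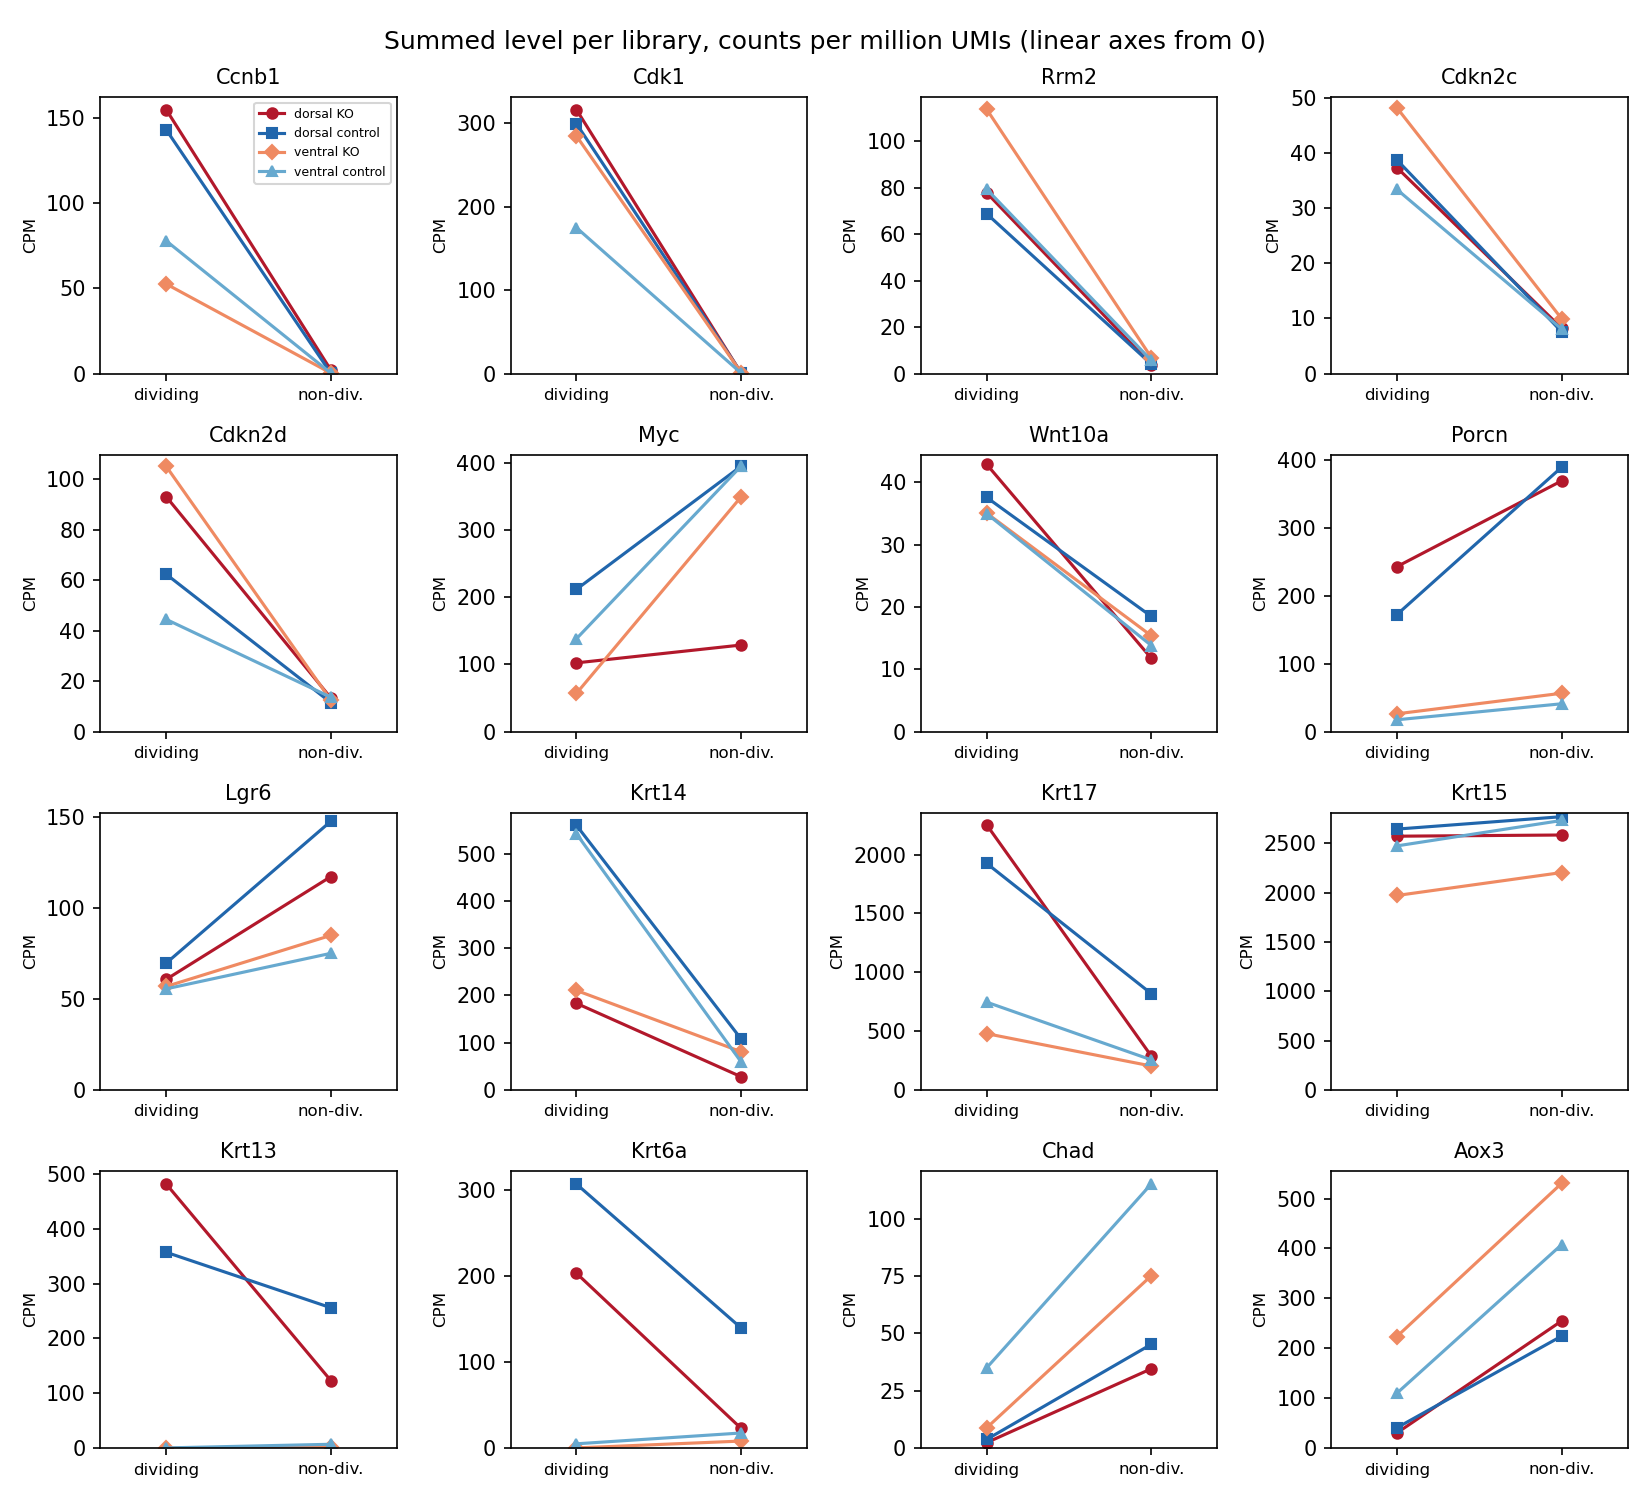
Summed level of 16 genes in CPM (linear axes from 0) in dividing cells, left in each panel, and non-dividing cells, right, with 1 point per library. Division genes run down steeply from left to right, Krt15 is nearly level, and Krt13 and Krt6a stand near 0 in both ventral libraries.

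Single dividing cells differed widely in their replication and mitotic RNA. The summed replication list had a median of 12.1 UMIs per 10000 in dorsal KO (lowest 3.23, highest 56.7), 8.57 in dorsal control (0.922 to 68.7), 32.8 in ventral KO (19.2 to 56.0) and 9.99 in ventral control (2.66 to 68.2). The mitotic lists, without the 8 genes of the rule, had a median of 66.6 in dorsal KO (3.78 to 114), 62.5 in dorsal control (2.19 to 147), 67.5 in ventral KO (34.9 to 111) and 31.5 in ventral control (4.43 to 108). Mitotic RNA exceeded replication RNA in 28 of 37 cells of dorsal KO, 122 of 133 of dorsal control, 3 of 4 of ventral KO and 14 of 18 of ventral control. The rule admits cells by mostly mitotic genes, and the lists differ in size, so these counts do not give the shares of cycle phases. Cells without any Ccnb1 UMI numbered 8, 24, 1 and 8 in the same order. In non-dividing cells the median was 4.94, 4.35, 5.24 and 5.29 for replication and 2.23, 2.04, 2.24 and 2.04 for the mitotic lists. Replication RNA exceeded the 95th percentile of non-dividing cells in 24, 67, 4 and 10 dividing cells, and mitotic RNA did so in 34, 125, 4 and 16.

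**Figure D3:**
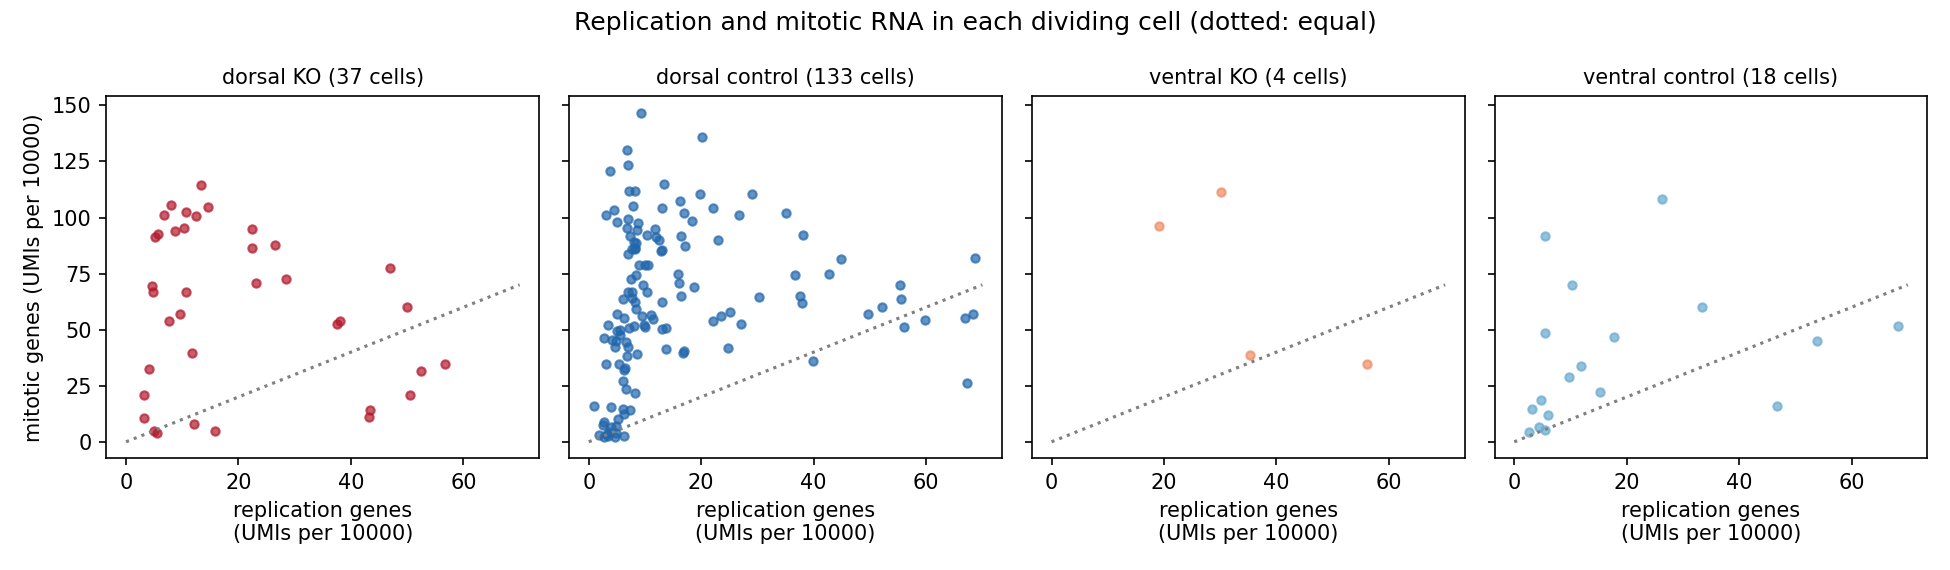
Each point is 1 dividing cell, placed by UMIs of the replication list (horizontal axis) and of the mitotic lists without the 8 rule genes (vertical axis), both per 10000 UMIs of the cell, with equality dotted. Most cells lie above the line with a mitotic level well over the replication level, and in dorsal control 122 of 133 do so. The cells were chosen by mostly mitotic genes, so the plot does not give the shares of cycle phases.

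Of the regulators that restrain or time division, the CDK inhibitors Cdkn2c and Cdkn2d and the pocket protein gene Rbl1 were higher in dividing cells, while Myc was lower. Cdkn2c had 37.3 CPM in dorsal KO, 38.7 in dorsal control, 48.2 in ventral KO and 33.4 in ventral control dividing cells, against 8.22, 7.58, 9.95 and 8.09 CPM in non-dividing cells. Cdkn2d had 93.1, 62.4, 105 and 44.5 CPM, against 13.3, 11.5, 12.4 and 13.6 CPM. Rbl1 had 31.8, 24.1, 52.6 and 22.2 CPM, against 6.26, 3.8, 4.53 and 3.98 CPM. For the 2 inhibitors each dividing level was above each non-dividing level. The share of all measured genes with that order was not counted, so the order is no sign of a special trait. Cdkn1a, the p53-induced CDK inhibitor, differed less, with 622, 776, 455 and 497 CPM against 578, 642, 650 and 679 CPM. Myc, a growth-promoting transcription factor gene, had 102, 212, 56.9 and 138 CPM, against 129, 395, 349 and 395 CPM. Its ratio of 0.794 in dorsal KO did not pass 1.5-fold, whereas that of dorsal control was 0.536. Of 12 measured G1 cyclins and CDK inhibitors 4 were called higher and none lower, beside 9.61% and 4.45% of all measured genes. Of 12 nucleolus and ribosome biogenesis genes 1 was higher.

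Within the basal identity list of 15 measured genes, 2 were called higher in dividing cells, Krt14 and Krt17, and 2 were lower, beside 9.61% and 4.45% of all measured genes. Krt14, a keratin of basal cells with proliferative or injury states, had 183 CPM in dorsal KO, 560 in dorsal control, 210 in ventral KO and 542 in ventral control dividing cells, against 27.6, 107, 80.5 and 58.8 CPM in non-dividing cells. It came from few cells in the KO and ventral libraries. In dorsal KO 11 of the 37 cells had a UMI and 1 cell held 45.6% of them, and all of the ventral KO UMIs were in 1 cell. In ventral control 5 cells had a UMI, of which 2 held 140 and 198 UMIs and the others 1 each. In dorsal control 55 of 133 cells had a UMI and the largest held 9.3%. Krt17 had 2253, 1925, 477 and 745 CPM, against 286, 817, 202 and 254 CPM, and without its largest cell 1336 CPM in dorsal KO, 1813 in dorsal control, 85.6 in ventral KO and 434 in ventral control. Without that cell the ventral KO level was thus below the 202 CPM of non-dividing cells. Icam1, an adhesion receptor gene, was lower, with 155, 255, 276 and 418 CPM against 347, 581, 864 and 734 CPM, and so was Ngfr, a nerve growth factor receptor gene, with 17.1, 24.3, 17.5 and 33.4 CPM against 30.5, 38.0, 35.9 and 41.3 CPM.

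Many genes of hillocks and squamous cells were higher in dividing than in non-dividing cells of both dorsal libraries. Of 12 measured genes 8 were at least 1.5-fold higher in both dorsal libraries, beside 10.6% of all measured genes by that rule, and none was lower, beside 5.61%, and 2 of the 8 were also on that side in both ventral libraries. The difference between the regions was not tested. The list's median log2 ratio was 1.99 in dorsal KO, 0.80 in dorsal control, 0.04 in ventral KO and −0.51 in ventral control. Krt13, the keratin that marks hillocks, had 482 CPM in dorsal KO and 357 in dorsal control dividing cells, against 123 and 256 CPM in non-dividing cells. Its dorsal control ratio did not pass 1.5-fold, and without the largest cell, which held 37.5% of the UMIs, the level was 226 CPM, below that of non-dividing cells. No Krt13 UMI was found in the dividing cells of either ventral library, where non-dividing cells had 2.20 and 6.66 CPM. Krt6a, a keratin of stressed and squamous epithelia, had 203, 306, 0 and 4.77 CPM, against 22.6, 139, 7.96 and 17.3 CPM, with 59.1% of the dorsal KO UMIs in 1 cell. Sprr2a3, a cornified envelope gene with near-identical copies and therefore an uncertain count, was one of the genes on the same side throughout, with 65.5, 75.6, 21.9 and 17.5 CPM against 14.6, 10.7, 0.549 and 0.626 CPM.

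In single dividing cells Krt14 and Krt13 overlapped in the dorsal libraries. With at least 3 UMIs as the limit, both keratins were present in 5 cells of dorsal KO and 28 of dorsal control, Krt14 alone in 1 and 14, Krt13 alone in 15 and 20, and neither in 16 and 71. Thus 5 of 6 Krt14 cells in dorsal KO and 28 of 42 in dorsal control also had Krt13, against 12 of 17 and 49 of 108 among non-dividing cells. These counts are not thinned and dividing cells are deeper, so the overlap at equal depth is not known. In the ventral libraries 1 cell of KO and 2 of control had Krt14, none with Krt13. Thinned to 8000 UMIs, Krt14 was present in 16.7% of dividing cells in dorsal KO, 23.5% in dorsal control, 1 of 4 cells in ventral KO and 11.8% in ventral control, against 0.996%, 4.40%, 4.62% and 4.04% of non-dividing cells. Krt13 was present in 36.1% and 14.4% of dividing cells in dorsal KO and dorsal control, against 4.08% and 6.38% of non-dividing cells, and in 0 of 4 and 0 of 17 in ventral KO and ventral control. In fibroblast-gated cells Krt14 stood at no more than 0.0725% and Krt13 at no more than 0.276%, below every dorsal share given here.

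**Figure D4:**
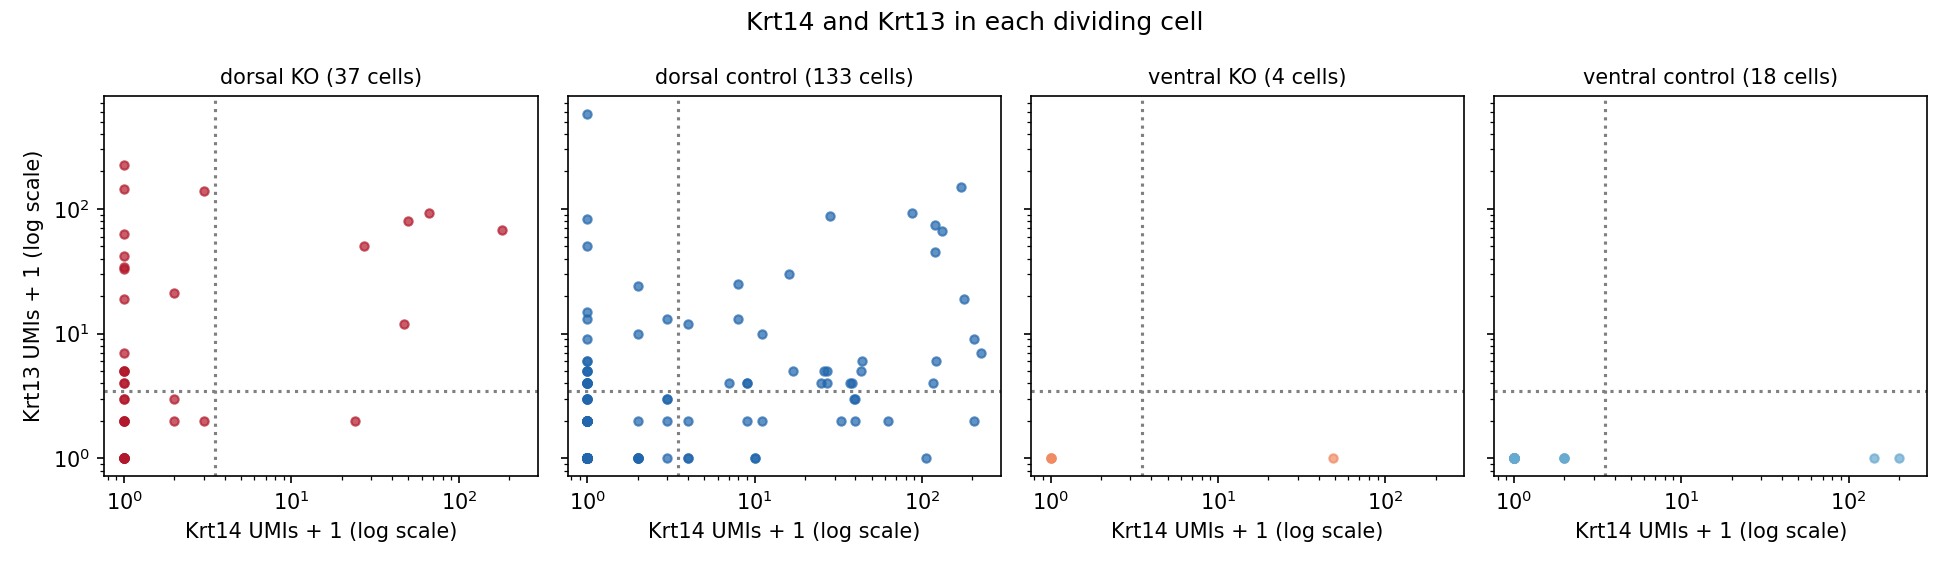
Each point is 1 dividing cell, placed by Krt14 UMIs plus 1 and Krt13 UMIs plus 1 (log axes), with dotted lines at the limit of 3 UMIs. Cells with both keratins fill the upper right in dorsal control (28 cells) and dorsal KO (5 cells), and no ventral cell lies above the horizontal line.

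Some secretory genes were lower in dividing cells. Of 17 measured secretory genes 5 were lower and 1 higher, beside 4.45% and 9.61% of all measured genes. The 20 listed secretory genes summed to 33899 CPM in dorsal KO, 34991 in dorsal control, 70860 in ventral KO and 21277 in ventral control dividing cells, against 79800, 75646, 73682 and 62718 CPM in non-dividing cells and 385895 to 462794 CPM in secretory-gated cells. The part of free RNA from secretory cells in these sums was not tested. Cyp2f2, a club cell cytochrome gene, had 2662, 4742, 4787 and 4822 CPM, against 8921, 10366, 12738 and 10388 CPM. Among the 10 lowest genes, the transferrin gene Trf had 1.84, 2.78, 13.1 and 15.9 CPM, against 54.3, 47.5, 154 and 114 CPM. Chad, an extracellular matrix gene, had 2.30, 3.71, 8.76 and 35.0 CPM, against 34.6, 45.3, 75.2 and 115 CPM. Aox3, an aldehyde oxidase, had 29.96, 40.3, 223 and 110 CPM, against 255, 224, 531 and 408 CPM, and the heme oxygenase gene Hmox1 had 12.0, 35.7, 114 and 84.2 CPM, against 87.5, 149, 386 and 394 CPM. Gdpd2, 1810010H24Rik, Atp6v1c2, Mettl7a1, Cadm2 and Fmo6 were the others, with ratios between 0.0553 and 0.300 in the dorsal libraries.

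Few signalling and adhesion genes were called, and the counts below stand beside 9.61% of all measured genes higher and 4.45% lower. Of 5 measured Wnt ligand and secretion genes 1 was higher and 1 lower, and of 6 Wnt targets 2 were lower. Wnt10a, a ligand, had 42.9 CPM in dorsal KO, 37.6 in dorsal control, 35.0 in ventral KO and 35.0 in ventral control dividing cells, against 11.7, 18.5, 15.4 and 13.8 CPM in non-dividing cells. Porcn, the acyltransferase that Wnt ligands need for secretion, was lower, with 243, 172, 26.3 and 17.5 CPM against 369, 389, 56.5 and 41.1 CPM. The Wnt target and receptor gene Lgr6 had 60.8, 69.8, 56.9 and 55.6 CPM against 117, 148, 85.1 and 75.2 CPM, and Bambi, a decoy receptor and Wnt target, had 30.9, 31.3, 43.8 and 74.7 CPM against 65.3, 51.4, 86.9 and 77.7 CPM. In ventral KO the Bambi ratio turned to the higher side without the largest dividing cell. No gene was called among 7 measured cadherin and catenin genes, 13 desmosome and tight junction genes, 15 matrix adhesion genes, 10 YAP targets and 5 p53 response genes. Of 9 Notch genes and of 7 EGF ligands and receptors, 1 each was lower. Of 7 interferon response genes 1 was higher and 1 lower. Of 7 clock and glucocorticoid response genes 4 were lower, and of 15 dissociation-responsive genes 3 were lower, Fos among those named here with 1539, 1966, 3386 and 3759 CPM against 2931, 3297, 5744 and 5178 CPM.

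The targeted gene was lower in KO dividing cells, and also in KO cells outside the basal gate. Ctnnb1 had 168 CPM in dorsal KO and 236 in dorsal control dividing cells, a ratio of 0.714 (interval 0.632 to 0.806), and 193 CPM in ventral KO and 264 in ventral control, a ratio of 0.731 (0.512 to 1.02). In non-dividing dorsal cells the ratio was 0.745 (0.721 to 0.770). Fibroblast-gated cells, in which P63-CreER should be silent, had 99.1 CPM in dorsal KO and 134 in dorsal control, immune-gated cells 46.9 and 89.6 CPM, and secretory-gated cells 161 and 199 CPM. A difference between the whole libraries and a loss in basal cells cannot be told apart from these levels. The controls are heterozygous for the floxed allele and the counts come from the 5′ ends of RNAs, which may lie outside the deleted exons, so these levels do not show how many cells lost the gene.

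KO and control dividing cells were compared only where a gene had at least 20 CPM and 50 UMIs in 1 of both libraries. In the dorsal libraries 274 of 6468 measured genes were at least 1.5-fold higher in KO (4.24%) and 1363 were lower (21.1%). The median over all genes was −0.20 on the log2 scale, and with size factors, which remove that shift, 589 were higher and 752 lower. In the ventral libraries, with 4 and 18 cells, 151 of 2149 were higher (7.03%) and 450 lower (20.9%), and with size factors 309 were higher and 278 lower. The median in dorsal non-dividing cells was −0.18, close to that of dividing cells. List medians below are to be read against these shifts.

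Spindle and chromatin genes were not past 1.5-fold between dorsal KO and dorsal control, while some replication genes were higher in KO. These counts stand beside 4.24% of all measured genes higher and 21.1% lower. None of 26 spindle genes and none of 17 condensin and chromatin genes was past 1.5-fold, and 1 of 19 mitotic kinases and cyclins was higher and 1 lower. The lower one was Pttg1, the securin gene, with 104 CPM in dorsal KO and 225 in dorsal control, and the higher one was Aurka, with 76.5 and 43.1 CPM. Replication genes had a median log2 ratio of 0.37, and 6 of 24 were higher and none lower. Among them Lig1, a DNA ligase gene, had 68.7 CPM in dorsal KO and 36.6 in dorsal control, and Gins2, a subunit of the replicative helicase complex, had 33.2 and 18.1 CPM. In non-dividing cells the replication median was 0.05.

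Many ligands and receptors of the EGF family and junction genes were lower in dorsal KO dividing cells, in a comparison in which 21.1% of all measured genes were lower. List counts with size factors, which bring the lower genes to 752, were not computed. Of 9 measured EGF family genes 7 were lower, with a median of −0.94 in dividing and −0.74 in non-dividing cells. The ligand gene Nrg1 had 266 CPM in dorsal KO and 769 in dorsal control, Ereg 11.5 and 47.3, and Areg 155 and 317. The receptor gene Egfr had 63.6 and 122 CPM. Of 15 desmosome and tight junction genes 8 were lower, with medians of −0.65 and −1.06. Ocln, which seals tight junctions, had 46.1 CPM in dorsal KO and 155 in dorsal control, and the claudin genes Cldn4 and Cldn1 had 466 and 9.22 CPM in KO, against 1213 and 24.8 CPM in control. Of 7 cadherin and catenin genes 3 were lower (medians −0.48 and −0.75), of 6 Wnt targets 2 were lower and none higher (−0.43 and −0.35), and of 10 YAP targets 4 were lower (−0.54 and −0.52). The cadherin and catenin list includes the targeted gene Ctnnb1, whose own ratio is the median of that list in dividing cells.

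For some keratins the ratio of KO to control was not alike in dividing and non-dividing cells. The KO to control ratio of Krt17 in the dorsal libraries was 1.17 in dividing and 0.350 in non-dividing cells, that of Krt13 was 1.35 and 0.479, and that of Krt6a 0.662 and 0.162. Krt14 was lower in KO in both, with ratios of 0.327 and 0.257. The hillock list had a median of −0.21 in dividing and −0.77 in non-dividing cells. The difference between these ratios was not tested. The largest cell held 45.6% of the Krt17 and 21.4% of the Krt13 UMIs of dorsal KO dividing cells, and without it the levels were 1336 and 422 CPM, against 1813 and 226 CPM in dorsal control without its largest cell. The direction of Krt17 between dorsal KO and dorsal control thus depends on 1 cell.

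**Figure D5:**
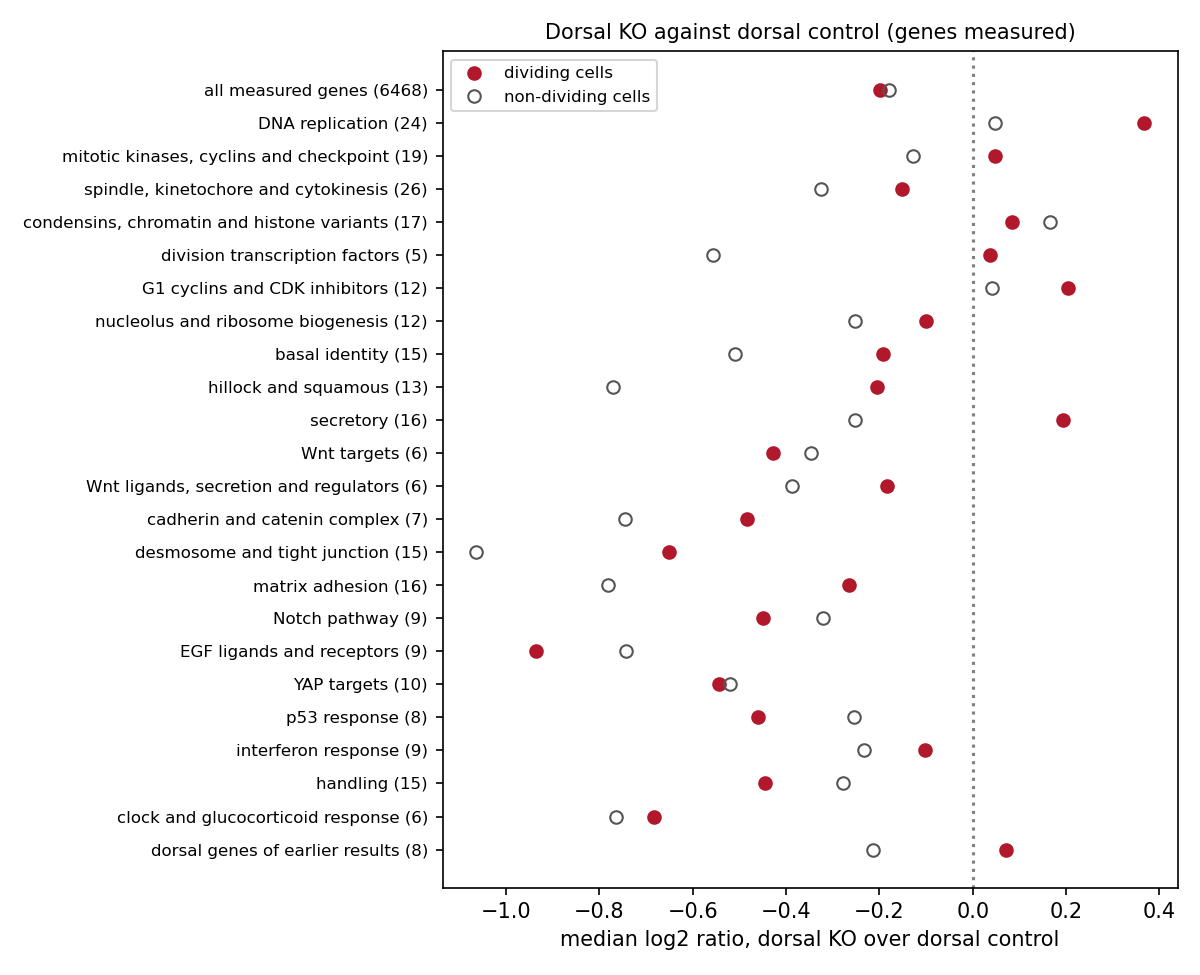
Median log2 ratio of dorsal KO to dorsal control over the measured genes of each list (number in brackets) in dividing cells, filled, and non-dividing cells, open, with equality dotted. All measured genes lie at −0.20 and −0.18, the EGF family lowest among dividing cells at −0.94 and DNA replication highest at 0.37.

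Among the genes furthest above control in dorsal KO dividing cells, 4930556J24Rik and Gm19951 came mainly from 1 dorsal KO cell each, with 95.2% and 53.7% of their UMIs. Ly6d, a surface protein gene of stratified epithelia, had 282 CPM in dorsal KO and 66.3 in dorsal control (ratio 4.25, interval 3.69 to 4.91) and was found in 27 of 37 and 48 of 133 cells, with 38.1% of the KO UMIs in 1 cell. In non-dividing cells its ratio was 0.988, and in the ventral dividing cells 0.535. S100a4, a calcium-binding protein gene, had 711 and 242 CPM (2.94, 2.72 to 3.18) and was found in 36 and 117 cells, against a ratio of 1.27 in non-dividing cells. Il31ra, an interleukin receptor gene, had 106 and 24.1 CPM (4.42, 3.49 to 5.62), with 3.96 in non-dividing cells. Tsc22d3, a gene induced by glucocorticoids, had 174 and 47.3 CPM (3.68, 3.10 to 4.39), with 3.18 in non-dividing cells. Gm28153, Gm36220 and Bst2 were further members with ratios of 9.81, 4.71 and 3.66, against 14.96, 4.71 and 1.34 in non-dividing cells.

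Of the 10 genes furthest below control, Tagln, Myh11 and Psca came mainly from 1 dorsal control cell, with 99.3%, 98.5% and 78.9% of their UMIs. Tagln and Myh11 are smooth muscle genes, and both turned to the KO side when cells with 3 or more Krt13 UMIs were left out. Of muscle and glia markers, the 6 listed summed to 3.69 CPM in dorsal KO, 128 in dorsal control, 477 in ventral KO and 22.2 in ventral control dividing cells. The clock repressor gene Nr1d1 had 3.69 CPM in dorsal KO and 94.1 in dorsal control (0.0392, 0.0168 to 0.0779), with a ratio of 0.149 in non-dividing cells. The labels do not state the time of day at harvest. Krt23 had 30.9 and 317 CPM (0.0975, 0.0751 to 0.125), with 0.340 in non-dividing cells. The phosphatase genes Dusp4 and Dusp5, which act on MAP kinases, had 4.15 and 37.8 CPM in dorsal KO, against 30.1 and 164 CPM in dorsal control. Pthlh, the parathyroid hormone-related peptide gene, had 10.6 and 57.5 CPM, the membrane protease gene Prss8 3.23 and 23.0 CPM, and Dennd2c 13.8 and 73.3 CPM. All of these were also lower in dorsal KO than in dorsal control non-dividing cells, at ratios between 0.149 and 0.440, except Tagln at 1.34.

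Dorsal and ventral dividing cells were compared within each genotype. In 5185 genes measured in both, 252 were at least 1.5-fold higher in dorsal cells in KO and in control (4.86%) and 204 were lower (3.93%). In control alone 919 of 6356 were higher (14.5%) and 770 lower (12.1%). Of 18 listed hillock genes 13 were measured in KO, and these 13 were higher in dorsal cells, beside 17.5% of all measured genes, and 12 were measured and higher in control. With few ventral cells, some of them had no ventral UMI and were measured only through the dorsal library where they are high. Among these were Krt13, Krt6a, Krt16, Dmkn, Lypd3 and Calml3 in KO, and Krt13 and Krt16 in control. These counts are thus no support for a difference. The single genes below with few or no ventral UMIs passed the minimum in the same way, among them Krt13 in both genotypes and Krt6a, Ly6g6c, Serpinb10 and S100g in KO. Their values describe these cells and are no support for a difference either. Krt13 was at least 36.7-fold higher in dorsal than in ventral cells in KO and at least 74.9-fold higher in control, against a floor of 3 UMIs in the ventral library. The serpin gene Serpinb2 had 331 CPM in dorsal KO and 673 in dorsal control, against 4.38 CPM (1 UMI) in ventral KO and 1.59 CPM (1 UMI) in ventral control. Its ratio was 75.6 in KO (13.5 to 2989) and 424 in control (76.0 to 16745). Krt6a was at least 15.4-fold higher in KO and 64.3-fold higher in control (interval 21.9 to 312). Mal, a gene for a membrane protein, had 588 and 370 CPM in dorsal KO and dorsal control, against 17.5 and 23.8 CPM in ventral KO and ventral control. Ly6g6c, Serpinb10, Calcb, S100g and Upk3bl were further members of the 10 highest. When dividing cells with 3 or more Krt13 UMIs were left out, 17 remained in dorsal KO, 85 in dorsal control, 4 in ventral KO and 18 in ventral control, and 79 genes were higher and 35 lower. This split uses Krt13, itself a dorsal gene, and with fewer cells fewer genes reach the UMI minimum, so the counts do not show how many genes lost their difference.

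Porcn was the last of the 10. Its dorsal to ventral ratio was 9.24 in KO (4.22 to 25.3) and 9.86 in control (5.48 to 19.8), and it was 6.53 and 9.48 in non-dividing cells. On the ventral side, the adhesion gene Cadm2 had 9.68 CPM in dorsal KO and 14.6 in dorsal control, against 267 in ventral KO and 98.5 in ventral control. In ventral KO 1 cell held 91.8% of the Cadm2 UMIs and 88.2% of the Aox3 UMIs, and without it the levels were 48.0 CPM for Cadm2 and 57.6 CPM for Aox3. B2m, the light chain of MHC class I, had 354 and 587 CPM in the dorsal libraries, against 1248 and 1592 CPM in the ventral ones, with ratios of 0.284 and 0.369 in dividing cells and 0.553 and 0.660 in non-dividing cells. Cadm1, Slit2, Etv6, Aox3, Rad51b, Nav2, Fos and Sntb2 were the others, with ratios between 0.134 and 0.523. Slit2 turned to the dorsal side in KO without the largest cells, so that its KO ratio rests on 1 ventral cell. Of 24 replication genes measured in KO, 19 were lower and none higher in dorsal cells, beside 18.4% of all measured genes lower. In control 8 of 21 were lower and 1 higher, beside 12.1% lower. The ventral KO side is 4 cells, which held 57, 265, 439 and 82 UMIs of the replication list. Most of these UMIs thus came from the cells with 265 and 439, and the KO count is no measure of a regional trait. Spindle genes were higher in dorsal cells in control, with 17 of 26 higher and none lower, beside 14.5% and 12.1% of all measured genes. In KO 2 were higher and 2 lower, beside 17.5% and 18.4%. Of the 18 ventral control cells 4 had 4 and 5 had 5 of the 8 rule genes, against 7 and 9 of the 133 dorsal control cells. The part of these cells in the spindle counts was not tested.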

How the data were processed

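RNA of single cells from 4 libraries (GEM-X 5′ chemistry) was aligned and counted with Cell Ranger 10.0.0 on GRCm39, per the submitters' processing notes; the deposited values are raw UMI counts per gene and barcode. Cells kept for analysis showed 500 or more genes and a mitochondrial share no higher than 15% (6185 dorsal KO, 13246 dorsal control, 6726 ventral KO and 9744 ventral control cells). Counts were summed per library and cell class and divided by the total UMIs of that sum to give CPM. A ratio of 2 sums has an exact conditional binomial 95% interval, and log2 ratios have 0.5 UMIs added to each side. With 1 library per group no test between groups was made.

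The members, gene lists and named genes were chosen with earlier results of these data known. Named genes are the 10 highest and the 10 lowest of each comparison, and the 10 highest outside the division lists. The rule also named 1 gene that is not reported here. Genes below 10% of their highest level in another cell gate were set aside as possible free RNA, which removed 14 genes past the fold. Doublets were called with Scrublet in scanpy 1.11.5, with a set rate of expected doublets where the automatic threshold had failed, and were kept in the main values. Other software was Python 3.11.15, numpy 2.4.6, scipy 1.17.1, pandas 2.3.3 and matplotlib 3.10.9. The steps were tested on simulated data. Alternatives were other limits on Krt5, Trp63, the 8 genes and mitochondrial UMIs, thinning, cells matched by depth, size factors, no filter, per-cell means, and leaving out doublets, the largest cells, Krt13 cells or the ventral KO library.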

Additional observations from a re-analysis of the deposited data

Results flagged for a closer look

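The ratio of dividing to non-dividing cells of Krt6a, a keratin of stressed and squamous epithelia, had opposite signs in the dorsal and ventral control libraries. Its log2 ratio was 1.14 in dorsal control and −1.64 in ventral control, where the dividing cells held 3 Krt6a UMIs and the ratio of 0.275 had an interval of 0.0565 to 0.810. In KO the dorsal log2 ratio was 3.17, with 59.1% of the Krt6a UMIs in 1 cell and a level without it of 90.4 CPM, against 22.6 CPM in non-dividing cells. The ventral KO dividing cells held no Krt6a UMI, and the 7.96 CPM of non-dividing cells there lies below the 13.1 CPM that 3 UMIs would give in the dividing cells, so that library sets no sign. The difference between the regions was not tested.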

How the results depend on the processing

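No paired analysis was possible because each group is 1 library, and for the same reason no replicate could be left out. The shares of dividing cells moved with the limits of the rule: at least 10 Krt5 UMIs gave 3.52% in dorsal KO and 5.09% in dorsal control, and at least 3 of the 8 genes gave 1.26% in ventral KO. The share of non-dividing cells with eGFP fell outside its main interval after thinning (63.4% in dorsal KO, 76.0% in dorsal control, 56.8% in ventral KO, 74.1% in ventral control) and with at least 3 eGFP UMIs (52.3%, 66.1%, 41.7% and 66.6%). With size factors, 589 genes were higher and 752 lower in dorsal KO than in dorsal control, and 309 higher and 278 lower in the ventral pair. Without the filter on low counts, 1495 genes were higher and 550 lower in dividing than in non-dividing cells, 2450 higher and 3075 lower in dorsal KO, 2681 higher and 2426 lower in ventral KO, and 1928 lower in dorsal cells of both pairs. The ventral KO count of higher genes was 235 with means of per-cell shares and 302 without the largest cell of each library. Without cells of 3 or more Krt13 UMIs, 79 genes were higher and 35 lower in dorsal cells of both pairs. The last 2 settings were chosen after seeing the data.

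Among 1940 ratios of 86 named genes, only those at least 1.5-fold in the main setting could count as turned. Smaller ratios are among the 1934 not counted as turned, whatever their sign, and 6 turned. These were Scgb1a1 in dorsal KO with per-cell means (log2 0.30), Bambi in ventral KO (0.068) and Slit2 between dorsal and ventral KO (2.38) without the largest cells, and, without the Krt13 cells, Calcb between dorsal and ventral KO (−0.92) and Myh11 (0.14) and Tagln (3.31) between dorsal KO and dorsal control. None of 1175 list medians turned by this rule, which counts only medians past 1.5-fold. The cause of these changes was not tested. The 4 ventral KO cells limit every value of that library.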
